A study of Mus musculus with 21 samples.

Results

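Cyb5r1, Ccdc64b, Kat2b, Cd9 and Pth2 are 5 genes whose RNA was low in olfactory neurons that carried a Mex3a fusion. They were chosen from the measured values, as listed symbols whose transcripts-per-million (TPM) levels were tightly lower in MexHT OSN than in HT OSN libraries, and are 5 of 23587 genes in the table for mice with both drivers and of 22918 in the table for mice with 1 driver. All 5 symbols were found in both tables. That contrast is therefore a description below and carries no test for these genes.

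The 21 libraries came from cells of the mouse main olfactory epithelium sorted by mCherry. In the first genotype, gg8tTA; OMPtTA; tetO-HyperTRIBE_mCherry (HT), the drivers switch on an RNA-editing domain alone. In the second, gg8tTA; OMPtTA; tetO-Mex3a_HyperTRIBE_mCherry (MexHT), the same domain is joined to Mex3a, an RNA-binding protein of stem and precursor cells. The third, gg8tTA; tetO-Mex3a_HyperTRIBE_mCherry (gg8), has the Mex3a fusion under the gg8 driver only, which is active in immature olfactory sensory neurons (OSN), whereas the OMP driver is active in mature ones. The mCherry-positive cells are called OSN here and the mCherry-negative cells of the same mouse are called negative cells. There were 3 HT OSN, 6 MexHT OSN, 3 HT negative, 5 MexHT negative, 2 gg8 OSN and 2 gg8 negative libraries. Every mouse carried an editing construct, so the negative cells were the internal control and a mouse without a construct was not part of the design. Age and sex are not stated in the labels. The dates in the library names differ between the gg8 mice and the mice with both drivers, so the effect of driver and that of date cannot be told apart.

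Olfactory sensory neurons are made throughout life from basal stem cells. They pass through an immature stage, with growth-associated genes such as Gap43, before they express the odorant transduction genes Omp, Adcy3 and Cnga2. The 5 genes belong to separate pathways. Cyb5r1 encodes a reductase that passes electrons from NADH to cytochrome b5. Ccdc64b, now named Bicdl2, encodes a relative of the BICD adaptors that tie cargo to dynein motors. Kat2b encodes a histone acetyltransferase of the SAGA-type complexes. Cd9 encodes a tetraspanin, a membrane protein that groups partner proteins and is found on many cell types, and Pth2 encodes the tuberoinfundibular peptide, a ligand of the receptor Pth2r.

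The genes lie on several chromosomes of GRCm38: Cyb5r1 at chr1:134405781-134411738, Ccdc64b at chr17:23644605-23668621, Kat2b at chr17:53566774-53672721, Cd9 at chr6:125460266-125494760 and Pth2 at chr7:45179701-45181838 (RefSeq gene spans). Several of them varied together between libraries of 1 group, as described below, and for this reason the sequence from 250 bases before to 50 bases after their RefSeq starts was searched on both strands for 2 palindromic motifs that do not overlap each other, TAATTA of homeodomain factors and TGACGTCA of CREB-type factors. Windows were found for Cyb5r1, Kat2b (2 starts), Cd9 and Pth2. The only match was TAATTA in the Cyb5r1 window, 25 bases before the start (offset -25). Among 32851 such windows of 27025 genes, 5.29% held TAATTA and 1.79% TGACGTCA, and the match is given as a description only. The Cyb5r1 window is shown because it holds that match, in capitals, and the Pth2 window because Pth2 had the steepest difference below (RefSeq, GRCm38.p6, both on the plus strand, chr1:134405531-134405830 and chr7:45180745-45181044).
Cyb5r1: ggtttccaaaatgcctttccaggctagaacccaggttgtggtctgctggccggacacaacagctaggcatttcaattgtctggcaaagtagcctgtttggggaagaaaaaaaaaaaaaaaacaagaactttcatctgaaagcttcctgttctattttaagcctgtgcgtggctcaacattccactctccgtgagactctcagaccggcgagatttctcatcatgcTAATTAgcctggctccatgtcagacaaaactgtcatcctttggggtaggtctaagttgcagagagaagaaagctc
Pth2: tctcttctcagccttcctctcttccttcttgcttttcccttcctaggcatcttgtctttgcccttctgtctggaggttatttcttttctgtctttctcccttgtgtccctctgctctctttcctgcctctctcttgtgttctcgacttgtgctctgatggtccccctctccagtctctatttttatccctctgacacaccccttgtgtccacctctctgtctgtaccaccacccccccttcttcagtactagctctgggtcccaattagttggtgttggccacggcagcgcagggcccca
The Cyb5r1 window had a GC content of 45.7% and the Pth2 window of 52.3%, beside a median of 52.7% over all windows. The Pth2 window lies within the RefSeq gene span given above, whose first base comes before the start used for the window.

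The construct was checked first. Mex3a stood at 24.0, 32.1 and 61.5 TPM in the 3 HT OSN libraries and between 328 and 1271 TPM (median 348) in the 6 MexHT OSN libraries. It rose by 3.68 (SE 0.45) on the log2(TPM + 1) scale in MexHT OSN against HT OSN (limma, adjusted p = 0.000406). With the Xist level as a covariate the difference was 3.70 with a larger SE of 0.81, and the call was lost (limma, adjusted p = 0.0534). The difference was 1.74 with the mature and 5.72 with the immune marker mean described below as a covariate, and passed in both. Neither marker mean overlapped between the 2 OSN groups. In negative cells Mex3a averaged 54.0 TPM in HT and 121.6 TPM in MexHT mice, a difference of 1.13 that did not pass (limma, adjusted p = 0.219). In the gg8 mice it averaged 1046 TPM in OSN and 156 TPM in negative cells, a difference of 2.56 (limma, adjusted p = 0.0571). Adar, an editing enzyme whose catalytic domain HyperTRIBE constructs use, was higher in OSN than in negative cells of every mouse, by 3.28 to 5.04 in the gg8 mice (limma, mean 4.16, adjusted p = 0.0159). Adar was 1.03 lower in MexHT OSN than in HT OSN (limma, adjusted p = 0.0399), a call lost in 11 of 21 alternative settings. The 2 OSN groups did not overlap in Mex3a.

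The depth was 7529648 to 15358377 recovered read counts per library. The female transcript Xist and, on average, 4 Y-linked genes were at 1 TPM or above in 14 of 21 libraries, among them 5 of 5 MexHT negative and 5 of 6 MexHT OSN but 1 of 3 HT OSN and 1 of 3 HT negative libraries. The labels do not state that animals were pooled, and a mouse here stands for 1 replicate number of a genotype. Against the markers, the negative cells were not free of mature neurons. The 14 mature OSN markers summed to 10756 to 16192 TPM in HT OSN and to 6321 to 12929 TPM in HT negative libraries, and no marker was at 0 in every library of a group. In these bulk libraries, fewer cells of a type and less RNA per cell cannot be told apart.

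Cyb5r1, the cytochrome b5 reductase, stood at 295, 232 and 199 TPM in the HT OSN libraries and between 35.2 and 53.6 TPM (median 47.4) in MexHT OSN. Every MexHT OSN library was below every HT OSN library, by 2.37 (SE 0.15) on the log2 scale. In negative cells, Cyb5r1 was at 169, 168 and 103 TPM in HT and at 70.4, 103, 46.8, 50.9 and 37.5 TPM in MexHT mice. The HT negative level was thus between the 2 OSN groups, and the MexHT negative level overlapped with both HT negative and MexHT OSN. In the gg8 mice the OSN libraries were at 30.2 and 40.7 TPM and the negative libraries at 104 and 129 TPM.

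Ccdc64b, the dynein adaptor, followed the same order at a lower level. It was at 102, 87.2 and 64.4 TPM in HT OSN and between 11.1 and 15.6 TPM (median 13.4) in MexHT OSN, 2.54 lower (SE 0.17). The HT negative libraries held 60.8, 73.1 and 31.0 TPM and the MexHT negative libraries 32.5, 43.4, 12.6, 19.8 and 8.93 TPM. The 2 lowest MexHT negative libraries, replicates 3 and 5, were within or below the MexHT OSN range. The gg8 OSN libraries had 6.90 and 4.27 TPM, the gg8 negative libraries 30.2 and 44.0 TPM.

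Kat2b, the acetyltransferase, was at 135, 135 and 123 TPM in HT OSN and between 22.6 and 34.1 TPM (median 23.0) in MexHT OSN, a difference of -2.31 (SE 0.15). It was at 106, 120 and 71.9 TPM in HT negative and at 81.5, 75.3, 42.6, 54.3 and 30.2 TPM in MexHT negative libraries. Its OSN groups were even, with an SD of 7.26 TPM in HT and 5.09 TPM in MexHT mice, and its MexHT negative libraries spread from the MexHT OSN range up to the HT negative range. The gg8 OSN libraries held 28.7 and 27.1 TPM, against 59.9 and 75.8 TPM in gg8 negative cells.

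Cd9, the tetraspanin, had another order of levels. HT OSN libraries were at 408, 407 and 432 TPM and HT negative libraries at 451, 439 and 405 TPM, so that these groups overlapped. MexHT OSN libraries stood between 106 and 144 TPM (median 130.2), 1.72 below HT OSN (SE 0.12), whereas the MexHT negative libraries held 417, 366, 315, 331 and 317 TPM. Cd9 was therefore low in the OSN of MexHT mice while their negative cells were between 315 and 417 TPM. The gg8 mice had 64.4 and 89.4 TPM in OSN and 346 and 456 TPM in negative cells.

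Pth2, the peptide ligand, was the rarest of the 5. It was at 48.4, 34.0 and 10.1 TPM in HT OSN, from 98, 68 and 16 counts, and at 0 to 3 counts in each MexHT OSN library. With 3 counts per library taken as the floor, the HT OSN mean of 30.8 TPM was at least 17.5-fold higher than MexHT OSN, whose floor was 1.77 TPM on average. Among negative cells it was at 22.9, 38.7 and 6.61 TPM in HT and at 11.1, 11, 1.12, 9.03 and 0 TPM in MexHT mice. The gg8 OSN libraries had 0 and 2 counts and the gg8 negative libraries 5.44 and 30.2 TPM, at least 13.9-fold more than the floor of 1.28 TPM. That bound rests on few libraries, being 4.2-fold without gg8 negative replicate 2 and 23.5-fold without replicate 1.

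All 5 genes had MexHT OSN libraries wholly below HT OSN libraries, a pattern that 16.9% of the 16067 genes tested showed. In that comparison 36.8% of genes were called at an adjusted p under 0.05, and 16.8% were called lower. As the rule used that contrast, nothing is read from this count. In the order of group means with both drivers, the step from MexHT negative to MexHT OSN was within the larger SD for Cyb5r1 and Ccdc64b. The step between HT OSN and HT negative was within it for Cd9 and Pth2. The levels of each library are drawn in the plot of TPM by group.

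**Figure D1:**
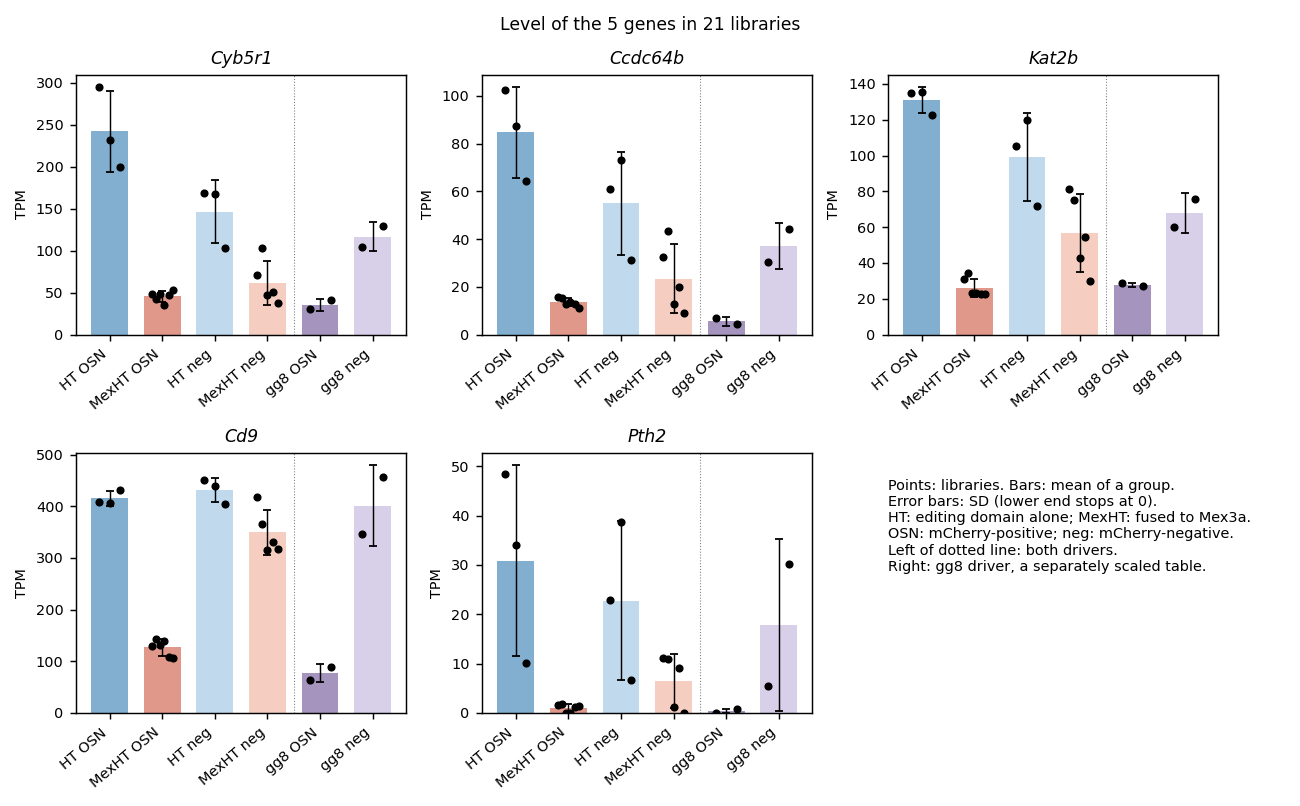
TPM of each of the 5 genes (y axis, TPM) in the 6 groups (x axis), with points for libraries, bars for group means and error bars for SD; the gg8 table was scaled separately. MexHT OSN sits below HT OSN in every panel, and only for Cd9 do the MexHT negative libraries, at 315 to 417 TPM, lie wholly above MexHT OSN.

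Negative cells of MexHT and HT mice were not used in choosing the genes, and this comparison asks whether the genes also differed in cells sorted as lacking the construct's mCherry. None of the 5 passed the threshold there, and none had groups that did not overlap, beside 5.07% of all genes with MexHT wholly lower. The limma difference was -1.29 (SE 0.32) for Cyb5r1 and -1.32 (SE 0.50) for Ccdc64b, with adjusted p-values of 0.218 and 0.220. For Kat2b it was -0.85 (SE 0.33, limma adjusted p = 0.221), for Cd9 -0.31 (SE 0.13, limma adjusted p = 0.230) and for Pth2 -1.95 (SE 0.94, limma adjusted p = 0.269). Of 16860 genes tested, 0 (0%) passed with limma and with voom on recovered counts, while 3465 (20.6%) had an unadjusted p under 0.05 (2247, 13.3%, lower in MexHT). Cyb5r1, Ccdc64b, Kat2b and Cd9 were among those 2247, with unadjusted limma p-values of 0.00326, 0.0277, 0.0291 and 0.0365.

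The spread within the negative cells went along with the mature markers. The mean log2(TPM + 1) of the 14 mature OSN markers was 8.33, 8.80, 6.48, 7.88 and 5.14 in MexHT negative replicates 1 to 5. Replicates 3 and 5, which had the lowest marker levels, also had the lowest levels of all 5 genes. The 14 markers had a median difference of -1.63 between MexHT and HT negative cells, beside -0.01 over all genes, and 0 of 14 passed. With the marker mean as a covariate, the differences were -0.68 (SE 0.21) for Cyb5r1, -0.29 (SE 0.24) for Ccdc64b, -0.18 (SE 0.16) for Kat2b, -0.17 (SE 0.13) for Cd9 and 0.02 (SE 0.38) for Pth2 (limma, adjusted p = 0.943 for the first 4 genes and 0.998 for Pth2). All 5 were thus closer to 0 than without the covariate.

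In OSN the same covariate left larger differences. They were -2.35 for Cyb5r1 (SE 0.26), -2.20 for Ccdc64b (SE 0.25), -1.95 for Kat2b (SE 0.22), -1.44 for Cd9 (SE 0.15) and -3.62 for Pth2 (SE 0.91), again as a description. The marker mean was 9.18 to 9.76 in HT OSN and 6.92 to 8.61 in MexHT OSN, so these groups did not overlap in the covariate and the fit extends past the libraries. The mature markers themselves were lower in MexHT OSN, 14 of 14 in value and 12 as called, with a median of -1.42 beside 0.03 over all genes. Adcy3, the odorant-signalling cyclase, fell by 2.72 (limma, adjusted p = 0.000765) and Omp, the marker that names the driver, fell by 0.88 (limma, adjusted p = 0.0271). Of 11 immature OSN markers, 10 were higher and 9 of them were called (median 1.01). Of 9 progenitor and cell cycle markers, 9 were higher and 2 were called (median 0.86), beside 36.8% of all genes called in either direction.

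In 2 MexHT mice, picked out after the values were seen, the fractions had close mature marker means: 8.61 in OSN and 8.33 in negative cells of mouse 1, and 8.14 and 7.88 in mouse 4. In mouse 1, Cyb5r1 was at 48.5 TPM in OSN and 70.4 TPM in negative cells, Ccdc64b at 15.6 and 32.5 TPM, Kat2b at 30.8 and 81.5 TPM, Cd9 at 129 and 417 TPM and Pth2 at 1.6 and 11.1 TPM. In mouse 4, Cyb5r1 was at 35.2 and 50.9 TPM, Ccdc64b at 13.7 and 19.8 TPM, Kat2b at 23.0 and 54.3 TPM, Cd9 at 140 and 331 TPM and Pth2 at 0 and 9.0 TPM. All 5 genes were lower in OSN in both, with the smaller gaps for Cyb5r1 and, in mouse 4, Ccdc64b. These single libraries carry no test, and the OSN libraries among them had served to choose the genes as low there. Mouse 2, with marker means of 8.46 in OSN and 8.8 in negative cells, was not picked. Mice 3 and 5 were not picked either, with marker means of 8.44 and 6.92 in OSN and 6.48 and 5.14 in negative cells. In these mice Cyb5r1 (0.04 and 0.31) and Ccdc64b (0.01 and 0.50) were not lower in OSN on the log2 scale. Kat2b (-0.86 and -0.39) and Cd9 (-1.25 and -1.54) were lower, and Pth2 was at 3 counts or fewer in each of these libraries.

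**Figure D2:**
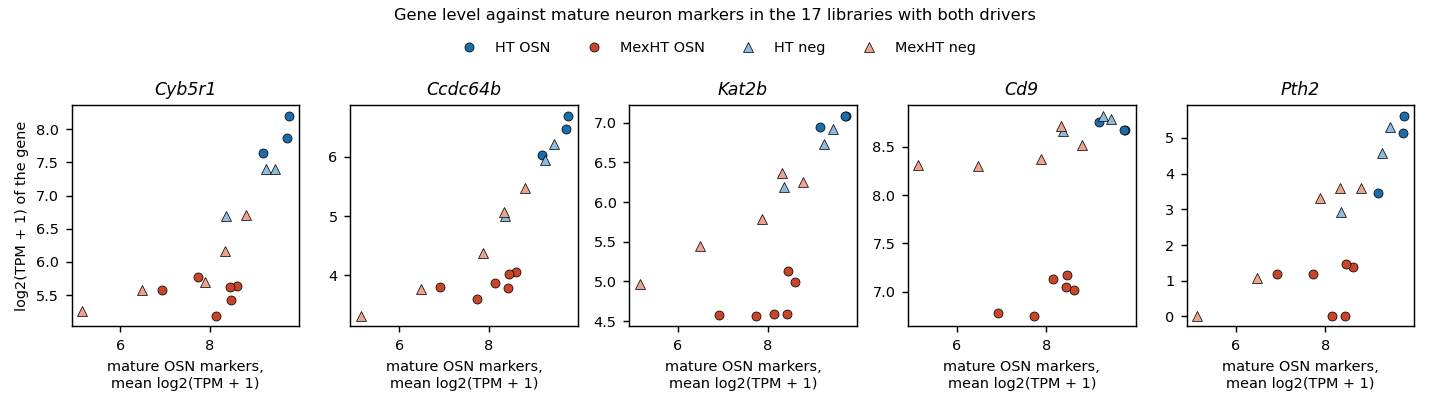
Level of each gene (y axis, log2(TPM + 1)) against the mean of 14 mature OSN markers (x axis, log2(TPM + 1)) in the 17 libraries with both drivers; circles are OSN and triangles negative cells. The triangles and the HT OSN circles lie along 1 band for Ccdc64b, Kat2b and Pth2, and the MexHT OSN circles at marker means of 8.44 to 8.61 lie below the negative libraries nearest to them, at 8.33, 8.36 and 8.80. At lower marker means this did not hold for every gene. MexHT OSN replicate 5 (6.92) and MexHT negative replicate 3 (6.48) had Cyb5r1 at 46.7 and 46.8 TPM and Ccdc64b at 13.0 and 12.6 TPM. Pth2 was at 3 and 2 counts there, whereas Kat2b was at 22.8 and 42.6 TPM and Cd9 at 109 and 315 TPM.

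Markers of other cell types were compared in the OSN contrast as well. All 11 immune markers fell in MexHT OSN (median -2.49), their summed level being 1508 to 6272 TPM in HT OSN and 345.8 to 683.2 TPM in MexHT OSN, with none at 0. With the immune marker mean as a covariate, the gene differences were larger, at -2.68 for Cyb5r1, -3.19 for Ccdc64b, -2.68 for Kat2b, -1.83 for Cd9 and -5.53 for Pth2. That mean was 6.69 to 8.75 in HT OSN and 4.64 to 5.58 in MexHT OSN, without overlap. This fit too extends past the libraries, as do OSN fits of other genes with either marker mean. HT OSN replicate 3, whose immune sum was 6272 TPM, had the lowest Cyb5r1, Ccdc64b, Kat2b and Pth2 of the 3 HT OSN libraries and the highest Cd9. With each library left out in turn, the differences were -2.50 to -2.22 for Cyb5r1, -2.72 to -2.39 for Ccdc64b, -2.38 to -2.27 for Kat2b, -1.75 to -1.67 for Cd9 and -4.51 to -3.43 for Pth2. Of 9 sustentacular markers, 9 were lower and 1 was called, with a median of -0.97, beside the 16.8% of all genes called lower. With the Xist level as a covariate, the gene differences were -2.32, -2.55, -2.27, -1.65 and -4.20 in the order above.

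The gg8 mice gave a second comparison outside the rule, in other mice and a separate table: immature neurons with the Mex3a fusion against their own negative cells. All 5 genes were lower in OSN of both mice, with groups that did not overlap, as for 30.2% of 16490 genes. Of the 5, 3 passed the threshold, beside 8.32% of all genes called and 7.2% called lower. Cd9 fell by 2.37 (SE 0.31, limma adjusted p = 0.0198), Ccdc64b fell by 2.54 (SE 0.48, limma adjusted p = 0.0337) and Cyb5r1 fell by 1.70 (SE 0.32, limma adjusted p = 0.0337). Kat2b differed by -1.24 (SE 0.33, limma adjusted p = 0.0663), and Pth2 had an adjusted p of 0.0534 (limma), or 0.0209 with the mouse as a block. With 2 against 2 libraries, the calls for Cd9, Ccdc64b and Cyb5r1 were each lost without either negative library or without OSN replicate 2 (limma adjusted p of 0.083 to 0.434).

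Markers of many cells moved in the gg8 comparison too, and their part in the result was not tested. The mature OSN markers were lower in 14 of 14 cases and called in 10 (median -4.08, all genes 0.09). They summed to 438.9 and 1066 TPM in OSN and to 8971 and 15644 TPM in negative cells. The Cd9 difference of -2.37 was smaller in size than that median, and so were those of Ccdc64b, Cyb5r1 and Kat2b. That of Pth2, at -3.43, was smaller too, but its gg8 OSN libraries were at the floor. With a pseudocount of 0.1 it was -5.50, so Pth2 cannot be ranked against the median. Granulocyte markers were lower in 8 of 8 cases and called in 7 (median -6.15). Connective tissue and vessel markers were lower in 8 of 8 and called in 6 (median -4.53). Connective and vessel markers summed to 44.5 to 58.2 TPM in gg8 OSN and 5292 to 5559 TPM in gg8 negative cells. There was no HT library with the gg8 driver alone, so fusion and fraction cannot be told apart in these mice.

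**Figure D3:**
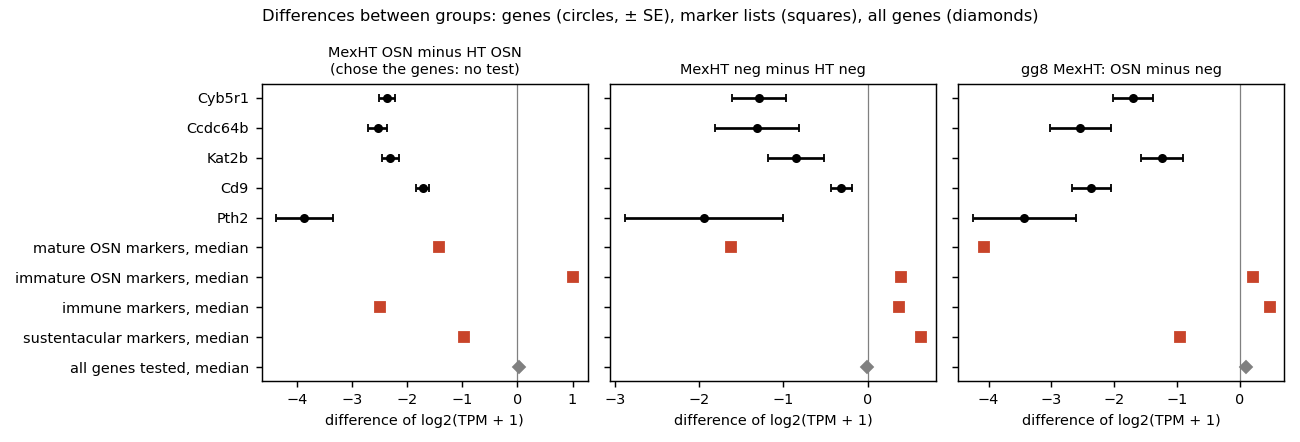
Differences in log2(TPM + 1) (x axis) of the 5 genes (circles, bars for SE), of the medians of 4 marker lists (squares) and of all genes tested (diamonds) in 3 comparisons. The genes are left of 0 in each panel, near -1.72 to -3.87 in OSN and -0.31 to -1.95 in negative cells; the mature marker median in negative cells is at -1.63.

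Within a mouse, the 2 fractions can be set side by side for both constructs; these values share libraries with the rule and carry no test. Kat2b was higher in OSN than in negative cells in 3 of 3 HT mice (mean 0.43, SD 0.30) and lower in 5 of 5 MexHT mice (mean -0.99, SD 0.38). Cd9 differed by -0.15 to 0.09 in HT mice and by -1.69 to -1.24 in MexHT mice. Cyb5r1 was higher in OSN of 3 of 3 HT mice (mean 0.74) and of 2 of 5 MexHT mice (mean -0.40). Ccdc64b gave 3 of 3 (mean 0.67) and 2 of 5 (mean -0.49), and Pth2 2 of 3 (mean 0.47) and 1 of 5 (mean -1.51). The spread was narrowest for Cd9, with SDs of 0.13 and 0.19, and widest for Pth2, with SDs of 0.62 and 1.71. In the gg8 mice all 5 genes were lower in OSN of both.

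**Figure D4:**
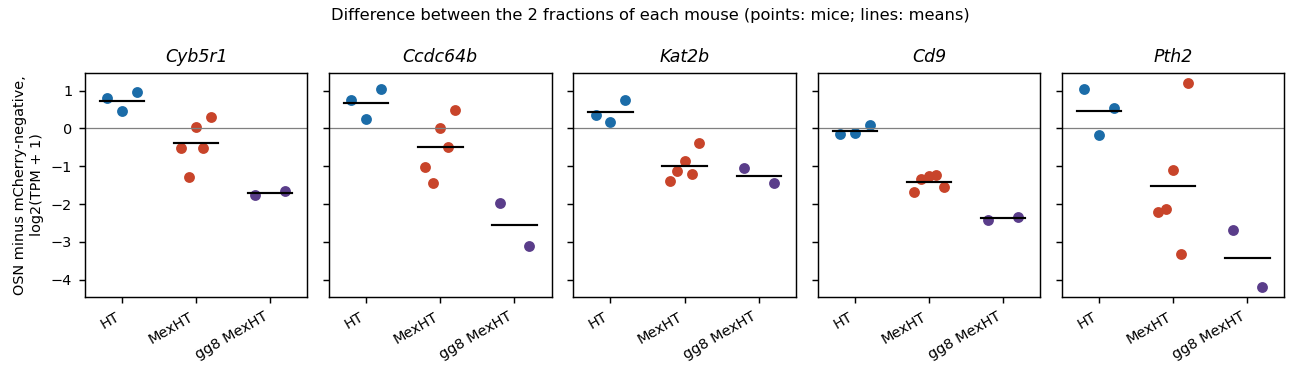
OSN minus negative cells of the same mouse (y axis, log2(TPM + 1)) for 3 HT, 5 MexHT and 2 gg8 MexHT mice (x axis); points are mice and lines means. For Kat2b the HT mice lie at 0.17 to 0.76 and the MexHT mice at -1.38 to -0.39, and for Cd9 the MexHT mice lie at -1.69 to -1.24.

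How the 5 genes varied between libraries of 1 group was described by the deviations of log2(TPM + 1) from group means. In the 8 negative libraries with both drivers, the median Pearson r with the 14 mature OSN markers was 0.96 for Ccdc64b, 0.95 for Kat2b, 0.95 for Pth2, 0.89 for Cyb5r1 and 0.75 for Cd9, beside -0.07 to -0.04 over all genes. The r with the immature markers was -0.70 to -0.43 and with the immune markers -0.46 to -0.13. With the progenitor and cell cycle markers it ran from -0.85 for Cd9 to -0.68 for Cyb5r1. Cd9 also had r values of 0.70 with the sustentacular, 0.79 with the basal and 0.72 with the ensheathing glia list, above those of the other 4 genes. In the 9 OSN libraries the median r with mature markers was 0.68 for Cd9, 0.57 for Kat2b, 0.55 for Ccdc64b, 0.08 for Pth2 and 0.02 for Cyb5r1. These points share the TPM scaling and libraries, and the markers are not independent of each other. The OSN libraries also served to choose the genes as tightly lower, which can limit the spread of the genes there.

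**Figure D5:**
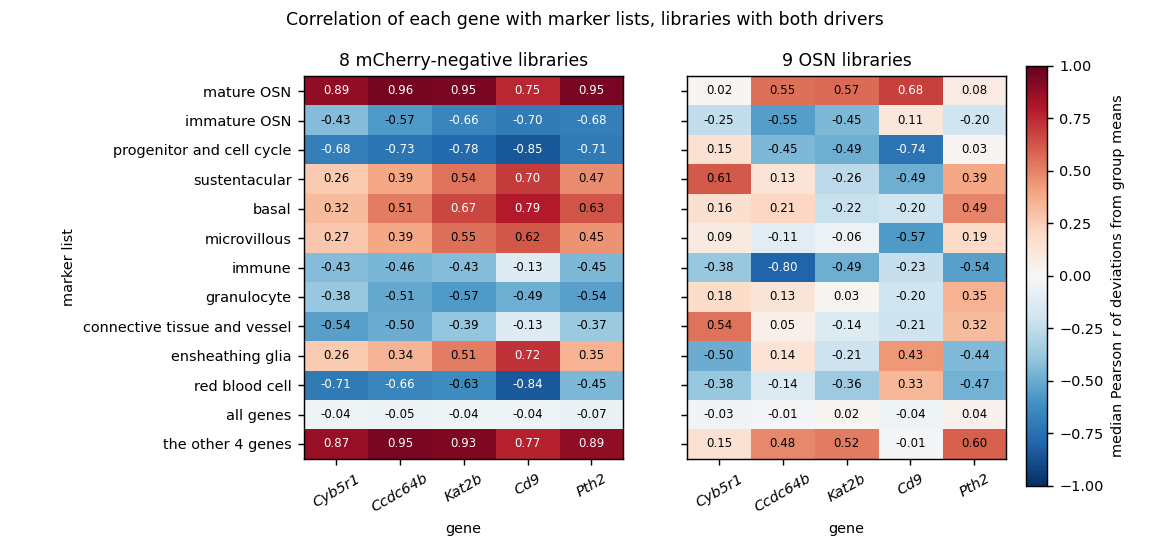
Median Pearson r of deviations from group means between each gene (columns) and each marker list (rows), in 8 negative and 9 OSN libraries with both drivers; the colour scale runs from -1 to 1. In the negative libraries the mature OSN row holds 0.75 to 0.96, and in the OSN libraries it holds 0.02 to 0.68.

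The genes also varied with each other in the negative libraries, with an r of 0.74 to 0.97 over the 10 pairs, and less evenly in the OSN libraries, with -0.61 to 0.66. Ccdc64b and Kat2b had an r of 0.97 in negative and 0.64 in OSN libraries, Cyb5r1 and Ccdc64b of 0.97 and 0.28, Cyb5r1 and Kat2b of 0.90 and 0.02, and Cyb5r1 and Cd9 of 0.74 and -0.61. Among the genes most like each in these deviations over the 17 libraries, Ccdc64b had Ipo13 (r = 0.98), Mb21d2 (r = 0.97) and Ckb (r = 0.97), Kat2b had Iqub (r = 0.96), Esrra (r = 0.95) and Cpeb3 (r = 0.95), and Cyb5r1 had Adck4 (r = 0.95), Arfip2 (r = 0.95) and Cacnb3 (r = 0.94). Pth2 had Kcnq1, a potassium channel gene (r = 0.93), the odorant receptor gene Olfr1384 (r = 0.92) and Ppargc1b (r = 0.92). Cd9 had Efcab7 (r = 0.93), Itm2c (r = 0.90) and Emc2 (r = 0.90). Likeness in these deviations did not carry over to the construct difference in every case. Adck4 was at 66.7 TPM in HT OSN and 52.0 TPM in MexHT OSN on average, and Mb21d2 at 107 and 99.9 TPM, whereas Olfr1384 was at 21.4 and 1.41 TPM.

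Within the 6 MexHT OSN libraries, each gene was also related to the mature marker mean, the immune marker mean and Mex3a, 15 relations in all. None passed after adjustment. The rule chose genes that were tightly lower in these same libraries, so their spread here is not free of that choice. Nothing is concluded from the lack of a relation. Cd9 with Mex3a came closest, with r = -0.87 (exact permutation p = 0.0444, adjusted p = 0.514) and rho = -0.71 (exact permutation p = 0.136, adjusted p = 0.65), and r was -0.47 without the 2 libraries farthest from the median Mex3a level. Cd9 with the mature marker mean had r = 0.78 and rho = 0.54 (exact permutation p = 0.0694 and 0.297, adjusted 0.514 and 0.65) and -0.52 without 2 libraries, so that it rests on those. Kat2b with the mature marker mean had r = 0.59 and rho = 0.83 (exact permutation p = 0.15 and 0.0583, adjusted 0.514 and 0.65), and r = 0.64 without 2.

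The relatives of each gene, from lists of its family or complex, were compared in the OSN contrast, where 36.8% of all genes were called and 16.8% were called lower. Among 6 cytochrome b5 genes and reductases beside Cyb5r1, 1 was called higher and 0 lower, with a median of 0.29. That gene was Cyb5a, the b5 haem protein, which rose by 0.62. The Cyb5a call was lost with the Xist level or the immune marker mean as a covariate (limma, adjusted p = 0.0755 and 0.0533). Cyb5r3, the widely expressed reductase, had a difference of 0.24 (limma, adjusted p = 0.203). Of 12 BICD-type adaptors and partners, 1 was called higher and 1 lower (median -0.14). Dynll1, a dynein light chain, rose by 0.60 and Rab6a, a Golgi Rab that binds BICD adaptors, fell by 0.56. The Rab6a difference was -0.02 with the mature marker mean as a covariate (limma, adjusted p = 0.949), its call being lost in 4 of 21 alternative settings, and that of Dynll1 in 2. The closest relative of Ccdc64b, Ccdc64, had a difference of 0.07 (limma, adjusted p = 0.601).

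Among 12 acetyltransferases and SAGA genes, Kat2a, the paralog of Kat2b, rose by 0.71 (SE 0.15, limma adjusted p = 0.00566), from 36.6 to 61.0 TPM on average. Crebbp and Kat7 rose by 0.45 and 0.50, Kat6a fell by 0.72, and the median was 0.23. With the mature marker mean as a covariate, the differences for Kat2a and Kat7 were 0.22 and -0.04 and no longer passed. Of 24 tetraspanins and Cd9 partners, 4 were called higher and 6 lower (median -0.14). Over all genes 36.8% were called and 16.8% were called lower, and nothing is read from these counts. Cd82 fell by 1.25, Cd53, a leukocyte tetraspanin, fell by 1.83, and Igsf8, a Cd9 partner, fell by 0.53, whereas Tspan5 rose by 1.08. Cd81, the nearest paralog of Cd9, had a difference of -0.18 (limma, adjusted p = 0.227). Cd63, Cd37 and Tspan4 had differences of -1.24, -1.15 and -0.78, each past the threshold. With the immune marker mean as a covariate their differences were 0.98, 0.01 and 0.07, in a fit that extends past the libraries.

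Of the 4 parathyroid hormone ligands and receptors beside Pth2, Pth1r was the only one with enough signal to be tested in OSN, and it had a difference of -0.32 (limma, adjusted p = 0.503). No listed relative passed in the negative cells. In the gg8 comparison 4 of the 24 tetraspanins and partners were called lower (Cd82, Cd37, Tspan7 and Igsf8), beside 7.2% of all genes. Pth1r was called lower too. The Cd82 call there was lost in 8 of 12 settings, and none of the b5, BICD-type or acetyltransferase genes passed.

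Neighbouring genes were compared because reads can be shared where genes touch, and strand use is not given in the sources used here. Gfy, which encodes a Golgi protein needed for olfactory signalling, lies 103 bp from the Pth2 span. It averaged 4277 TPM in HT OSN and 1739 TPM in MexHT OSN and fell by 1.30 (limma, adjusted p = 0.000603), and in gg8 OSN it fell by 2.29 against negative cells (limma, adjusted p = 0.0272). Adipor1, an adiponectin receptor gene 3639 bp from Cyb5r1, fell by 1.67 (limma, adjusted p = 0.000731) and, in gg8 OSN, by 1.89 (limma, adjusted p = 0.0282). The genes on the other side were lower too. 4933406M09Rik, 14278 bp from Cyb5r1, fell by 2.57 (limma, adjusted p = 0.000129), and Ccdc155, 1780 bp from Pth2, fell by 1.07 (limma, adjusted p = 0.0489). Both were at low levels, with means in HT and MexHT OSN of 6.67 and 0.30 TPM for 4933406M09Rik and 4.26 and 1.62 TPM for Ccdc155. Of all genes, 16.8% were called lower in this contrast. Thoc6, which overlaps the end of Ccdc64b, rose by 0.55 (limma, adjusted p = 0.00692), and Sgol1 next to Kat2b had a difference of 0.55 (limma, adjusted p = 0.353). Hcfc1r1, 4986 bp from Ccdc64b, rose by 0.31 (limma, adjusted p = 0.03). Pp2d1, on the other side of Kat2b, had a difference of -0.07 (limma, adjusted p = 0.894). Mmp25, which overlaps the start of the Ccdc64b span, averaged 0.86 TPM in HT OSN. The lncRNAs Gm28809 and Gm26728 overlap Cd9 and were not matched in the tables, so reads of Cd9 and of these genes cannot be told apart here.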

How the data were processed

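RNA of sorted main olfactory epithelium cells was measured in 21 libraries made from 10 ng of RNA with a stranded low-input kit, per the labels' protocols. The authors deposited TPM values in 2 separately scaled tables, and the submitters' processing notes name FastQC, cutadapt, STAR, bedtools and mm10. The program that made the TPM values, its annotation and its use of strand are not given in the sources used here. Symbols that had turned into dates (27 per table, at most 0.221% of TPM) were left out. Whole read counts were recovered from the TPM steps for 100% of 23614 genes with both drivers and 99.85% of 22813 genes with gg8. They served for depth, for the floor of 3 counts and for voom, and cover counting error only.

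Comparisons were fitted within a table with limma 3.58.1 (R 4.3.3) on log2(TPM + 1), which understates changes of low genes, over all genes whose mean reached 1 TPM in the libraries fitted, with no other group in the fit. P-values were two-sided with Benjamini-Hochberg adjustment and a threshold of 0.05. All 5 genes passed the filter in each comparison. Named besides them were Mex3a, Adar, genes of the marker and family lists, neighbouring genes and, for each gene, the 3 most alike in deviations from group means. These genes and lists were chosen with earlier results of these data known. P-values measure the spread between libraries. OSN and negative cells with 1 replicate number were taken as the same mouse per the labels. Their deviations had r of 0.185, 0.275, -0.113, 0.095 and 0.421 in MexHT mice and of 0.183, 0.308 and 0.475 in HT mice. These values overlap with those of different mice given next, so the pairing rests on the labels. Same-numbered MexHT and HT negative libraries deviated together (r = 0.343, 0.417 and 0.23), which by rule pairs them although no shared mouse, litter or day is stated; OSN libraries did not (0.113, 0.133 and -0.234). Editing sites were not analysed here.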

Additional observations from a re-analysis of the deposited data

Results flagged for a closer look

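Mex3a in MexHT OSN replicate 5 stood at 1271 TPM, apart from the other 5 libraries of its group, the next of which was at 679 TPM. It was 1 such library among 14 combinations of gene and group examined, and chance marks about 1 in 20 groups in this way. The 5 genes in that library were within the range of their group, for example Kat2b at 22.8 TPM and Cd9 at 109 TPM.

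Kat2b was higher in OSN than in negative cells in every HT mouse and lower in every MexHT mouse, a difference between the means of -1.42 on the log2 scale. The difference was not tested, since the OSN libraries had served to choose the gene. Kat2b was not alone in this, as HT and MexHT mice did not overlap in Cd9 (-0.15 to 0.09 and -1.69 to -1.24) or Cyb5r1 (0.46 to 0.95 and -1.28 to 0.31).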

How the results depend on the processing

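The 5 genes kept the direction of the OSN difference in all 21 alternative settings. As the rule chose them for that difference, this was largely set in advance and is a description. The values that moved beyond the spread between libraries were -2.68 for Cyb5r1, -3.19 for Ccdc64b, -2.68 for Kat2b and -5.53 for Pth2 with the immune marker mean as a covariate, -2.20 for Ccdc64b, -1.95 for Kat2b and -1.44 for Cd9 with the mature marker mean, and -5.35 and -2.41 for Pth2 with pseudocounts of 0.1 and 5. Over all genes, 5907 were called in the OSN contrast, against 329 with Xist, 3618 with the mature and 3544 with the immune marker mean as a covariate, and 3745 to 6506 without 1 library (3745 without HT OSN replicate 1 and 3886 without replicate 2). In negative cells, 0 genes were called, against 1 with no filter on low values, 24 with all 4 groups in 1 fit and 0 to 4 without 1 library; none of the 5 genes passed in any of 20 settings (adjusted p of 0.0539 to 0.998), and Pth2 turned to 0.02 with the mature marker mean. In the gg8 comparison, 1372 genes were called, against 646 with a pseudocount of 0.1, 820 with a mean of at least 5 TPM and 0 to 3703 without 1 library (0 without either negative library or without OSN replicate 2, 3703 without OSN replicate 1). A lone library left in an arm is assumed there to vary like the other group. Without 1 gg8 library, Cyb5r1 was at -1.91 to -1.49, Ccdc64b at -2.83 to -2.25, Kat2b at -1.41 to -1.08, Cd9 at -2.61 to -2.14 and Pth2 at -4.57 to -2.30, and Kat2b passed without OSN replicate 1 (limma adjusted p = 0.0473). The replicate block paired the fractions of a mouse in the gg8 comparison and same-numbered libraries of different mice in the others. With the block, gg8 Pth2 was at -3.43 and passed (limma adjusted p = 0.0209), no other call of the 5 genes changed, and 4801 (OSN), 0 (negative) and 1529 (gg8) genes were called. Within MexHT OSN, r without the 2 farthest libraries turned to 0.90 (Cyb5r1) and 0.70 (Pth2) with the mature marker mean, -0.98 (Cyb5r1), 0.65 (Cd9) and -0.49 (Pth2) with the immune marker mean, 0.82 (Ccdc64b) and 0.61 (Kat2b) with Mex3a, and -0.52 for Cd9 with the mature marker mean. Among other named genes, Kat7 turned to -0.04 and Adar in negative cells to 0 with the mature marker mean, and Cd63, Cd37 and Tspan4 to 0.98, 0.01 and 0.07 with the immune marker mean. The cause was not tested. At this depth, Pth2 in MexHT OSN and gg8 OSN was not measurable above 3 counts.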
